A study of Mus musculus with 8 samples.

Results

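Mature miRNAs of mouse embryoid bodies at day 4 of differentiation were compared with those at day 2, in cultures with and without doxycycline (Dox). The comparison used 4 of the 8 small RNA libraries of the study, namely day 2 without Dox, day 2 with Dox, day 4 without Dox and day 4 with Dox, chosen by their labels, and all 1099 miRNAs of the deposited table. All 4 libraries came from KH2-DGCR8 cells, a line of KH2 mouse embryonic stem cells whose genotype is labelled for DGCR8, which with DROSHA forms the Microprocessor, the nuclear complex that releases miRNA hairpins. KH2 is a line made for Dox-inducible transgenes, and the series describes overexpression of DGCR8 during differentiation. The remaining 4 libraries, of days 0 and 1 with and without Dox, entered the statistical model. Each condition had 1 library, so a change was read by whether it appeared in both treatments. The labels do not say when Dox was added or whether libraries came from separate cultures, and small RNA does not show whether DGCR8 itself was raised. P-values therefore concern the spread between these libraries, not a spread of replicates. It is how far the 2 treatments disagreed between days, and it may be technical or include effects of Dox. For most miRNAs it was taken from the trend over all miRNAs.

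Embryoid bodies are floating clumps of differentiating stem cells, in which derivatives of the germ layers begin to form. A miRNA is loaded into an Argonaute protein and finds its targets chiefly through its seed, which is bases 2 to 8 counted from the 5′ end. The miR-290 cluster is the main miRNA cluster of mouse embryonic stem cells, and the miR-302/miR-367 cluster is known from the epiblast. Several miRNAs of both clusters have the same seed and are known for promoting the embryonic stem cell cycle. Others mark later cell types, such as miR-1a and miR-133a in muscle or miR-124 in neurons.

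The sequences below carry the main patterns. They are mature sequences from RefSeq (build GRCm38.p6), 5′ to 3′, with the seed in capitals. RefSeq held a sequence for 926 of the 1099 miRNAs and for 62 of the 78 miRNAs that passed the test described below.

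The first set shows a seed that an abundant falling cluster shares with members of the miR-302 cluster.
miR-291a-3p: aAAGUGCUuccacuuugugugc
miR-294-3p: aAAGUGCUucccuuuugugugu
miR-295-3p: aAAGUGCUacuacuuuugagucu
miR-302b-3p: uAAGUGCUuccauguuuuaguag
miR-302d-3p: uAAGUGCUuccauguuugagugu

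The second set shows the miR-148/miR-152 seed, of which 2 members rose.
miR-148a-3p: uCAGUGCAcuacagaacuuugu
miR-152-3p: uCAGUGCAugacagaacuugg
miR-148b-3p: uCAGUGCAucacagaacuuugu

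The third set shows a seed whose members moved in opposite directions.
miR-181a-5p: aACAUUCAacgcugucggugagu
miR-181b-5p: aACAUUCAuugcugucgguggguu
miR-181c-5p: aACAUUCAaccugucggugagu
miR-181d-5p: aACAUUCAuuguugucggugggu

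The last set shows the miR-7 pair, so alike in sequence that their reads may not be separable. It also shows miR-378c and miR-378d, which differ at 2 of 21 positions, including A6C in the seed, and 2 neighbours of chromosome 12 that rose.
miR-7a-5p: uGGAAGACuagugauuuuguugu
miR-7b-5p: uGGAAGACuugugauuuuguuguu
miR-378c: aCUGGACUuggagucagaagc
miR-378d: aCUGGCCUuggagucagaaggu
miR-379-5p: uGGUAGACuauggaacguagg
miR-411-5p: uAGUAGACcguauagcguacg

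The deposited values behave as miRNA reads scaled to a common total (RPM) and rounded to whole numbers. Low values step by the worth of 1 read, which gave implied totals of 421524 and 470139 reads at day 2 and 362483 and 541342 at day 4, without and with Dox. A miRNA with 3 reads stood at 5.54 to 8.28 RPM in the 8 libraries. Where a ratio of 2 libraries has a 95% interval below, the interval is exact, conditional on the summed reads, and covers counting error only. As a check of the labelled cell type, the miR-290 cluster took 36.1% and 37.4% of day 2 reads.

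Of 839 miRNAs tested, 78 passed the test between day 4 and day 2 (9.3%), 46 of them higher at day 4 (5.48%) and 32 lower (3.81%). The test was limma's moderated test on log2(RPM + 1) over all 8 libraries with terms for day and treatment, and passing means a Benjamini-Hochberg adjusted p under 0.05. The median change of all tested miRNAs was 0.17 on the log2 scale. Each of the 78 moved in 1 direction in both treatments, and none had a mean under 10 RPM over the 4 libraries. The fitted change is the mean of the changes in the 2 treatments. A miRNA moving in opposite directions could therefore hardly pass, and this agreement is largely built into the test. Of the 46 that rose, 39 had both day 4 libraries above all 6 earlier libraries, a pattern seen in 22.7% of the 510 miRNAs whose mean over days 2 and 4 reached 10 RPM. Of the 32 that fell, 22 had both day 4 libraries below all 6 earlier ones, against 7.06% of the 510. Passing already selects miRNAs whose day 4 and day 2 libraries differ, so these counts describe the calls and are no further support for them.

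These calls rest on few libraries. A fit of the 4 libraries of days 2 and 4 alone called 0 miRNAs with limma, although 96 had an unadjusted p under 0.05. With all 8 libraries but no robust option, 25 were called. Without the day 2 library lacking Dox 1 was called, miR-411-5p, with 123 at an unadjusted p under 0.05, without the day 2 library with Dox 10 were called, and without the day 4 library with Dox 122 were called. RPM are shares of a total, and another scaling moved the balance of directions: by median of ratios 38 were higher and 42 lower, and scaled to the reads outside the miR-290 cluster 20 were higher and 68 lower, with medians of 0.05 and -0.07.

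Among these 510 miRNAs, 70 changed at least 2-fold in 1 direction in both treatments (13.7%). Of these, 49 were higher at day 4 (9.61%) and 21 were lower (4.12%), and 44 of the 70 passed the test. A further 10 changed at least 2-fold in opposite directions. At any size, 215 were higher in both treatments, 145 were lower in both, and 143 went in opposite directions. The log2 ratios of the 2 treatments had a Pearson r of 0.51 and a Spearman rho of 0.52 across these miRNAs, given as a description, since miRNAs of a library are not independent.

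**Figure D1:**
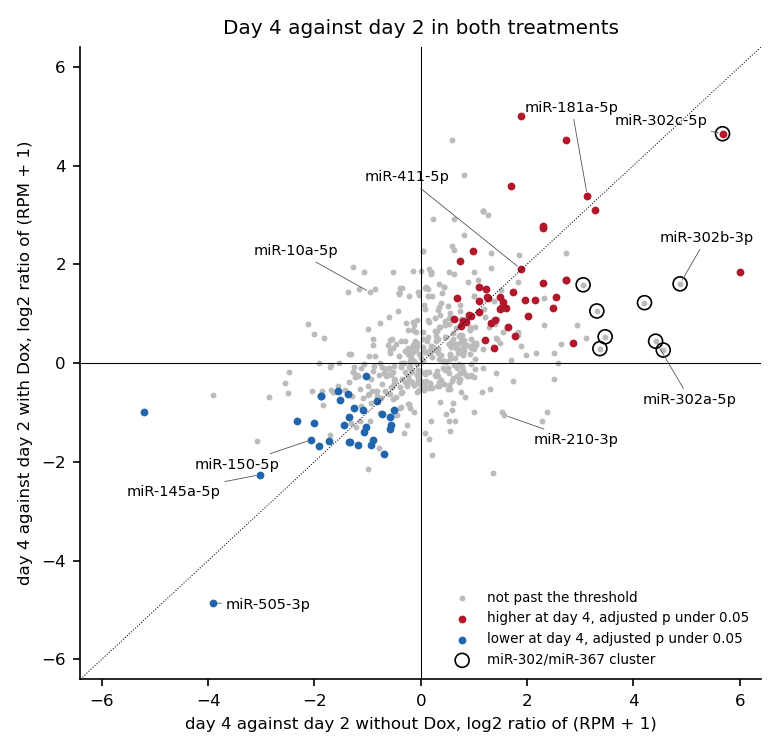
Each point is 1 miRNA whose mean reached 10 RPM (510 points), with its log2 ratio of day 4 to day 2 without Dox on the x axis and with Dox on the y axis, both from RPM + 1 and 1 library per condition. Red and blue points passed the limma test and lie at the upper right and lower left, while the circled miR-302/miR-367 members lie to the right, and all of them below the dotted line of equal change.

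The miR-290 cluster lost much of its share of the libraries between day 2 and day 4. Its 14 tested members were lower at day 4 in both treatments, and 8 of them passed the test (against 3.81% of all miRNAs), with a list median of -0.93 on the log2 scale. The cluster went from 36.1% to 16.3% of reads without Dox and from 37.4% to 22.9% with Dox. Fewer cells expressing the cluster and less of it per cell cannot be told apart in bulk RNA, here and for every result that follows.

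miR-293-3p, from the chromosome 7 cluster (chr7:3220390-3220411, + strand), was the most abundant miRNA by its mean over the 4 libraries. It stood at 105909 RPM at day 2 and 44466 at day 4 without Dox, and at 110999 and 59319 with Dox. At day 4 miR-184-3p was above it, at 67642 RPM without Dox and 61695 with Dox. Both day 4 values of miR-293-3p were below all 6 earlier ones, which ran from 105909 to 116591. The fold was 2.38 lower without Dox (95% interval 2.34 to 2.43) and 1.87 lower with Dox (1.85 to 1.90), and the fitted log2 change was -1.08 (SE 0.21, adjusted p = 1.12e-05). Its opposite arm, miR-293-5p, went from 23987 to 9405 RPM and from 27045 to 12724, a log2 change of -1.22 (SE 0.23, adjusted p = 6.49e-06).

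The cluster's members with the seed AAGUGCU fell, with the smaller fold in the Dox libraries. miR-295-3p went from 53008 to 18412 RPM without Dox and from 51353 to 30513 with Dox (log2 change -1.14, SE 0.22, adjusted p = 1.12e-05). miR-291a-3p went from 42263 to 16315 and from 38333 to 24986 (2.59- and 1.53-fold lower, adjusted p = 0.000261). miR-294-3p, which is known to sustain the rapid stem cell cycle, went from 45153 to 22164 and from 43562 to 36502 (log2 change -0.64, SE 0.22, adjusted p = 0.0357). All 3 were lower at day 4 in both treatments, by 2.04- to 2.88-fold without Dox and by 1.19- to 1.68-fold with Dox. The difference between treatments did not pass for any of them. It was 0.77 on the log2 scale for miR-295-3p (adjusted p = 0.328), 0.76 for miR-291a-3p (adjusted p = 0.481) and 0.77 for miR-294-3p (adjusted p = 0.493). miR-292a-3p, for which no RefSeq sequence was matched, went from 43428 to 20462 RPM and from 44006 to 22734, nearly alike in both treatments.

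The miR-302/miR-367 cluster had the opposite direction. Its 9 members were higher at day 4 in both treatments, from 0.234% to 3.58% of reads without Dox and from 0.130% to 0.237% with Dox. The list median was 2.41 on the fitted log2 scale, made of 4.21 without Dox and 1.05 with Dox. Only miR-302c-5p passed the test, and it is named after its values were seen. It went from 5 to 306 RPM without Dox and from 0 to 24 with Dox, on 2, 111, 0 and 13 reads.

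miR-302b-3p (chr3:127545275-127545297, + strand) was the most abundant member. It went from 439 to 12939 RPM without Dox, 29.5-fold (95% interval 25.4 to 34.3), and from 300 to 914 with Dox, 3.05-fold (2.52 to 3.70). miR-302d-3p went from 1025 to 11363 RPM without Dox and from 553 to 800 with Dox. Both miRNAs were higher at day 4 in each treatment beyond counting error, and the 2 counting intervals of miR-302b-3p do not overlap. Neither passed the day 4 against day 2 test, with limma adjusted p = 0.314 and 0.457, and their fitted SEs were 1.34 and 1.18. A difference between treatments in the size of a rise enters the SE of this test. These SEs therefore do not measure the uncertainty of the rise within 1 treatment.

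Summed over the RefSeq-matched miRNAs with the seed AAGUGCU, RPM went from 141888 to 81193 without Dox and from 134101 to 93715 with Dox. These 5 miRNAs are those printed in the first set. The summed level was lower at day 4 in both treatments, by 1.75-fold and 1.43-fold, with these 2 miR-302 members included. miR-302a-3p, for which no sequence was matched, is not in the sum.

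**Figure D2:**
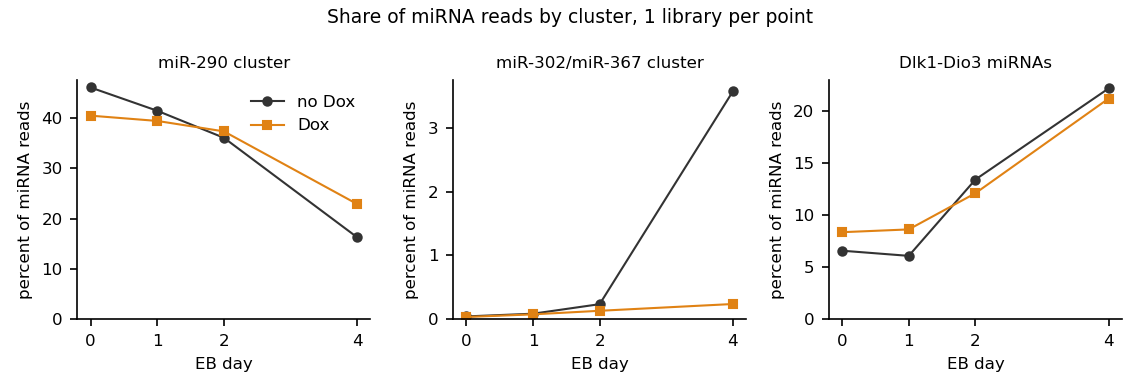
Percent of miRNA reads of each library taken by 3 groups of miRNAs (y axes from 0, with different ranges) at EB days 0, 1, 2 and 4, with 1 library per point, circles for no Dox and squares for Dox. Between days 2 and 4 the miR-290 share is lower in both treatments, the Dlk1-Dio3 share is higher in both, and the miR-302/miR-367 share reaches 3.58% without Dox and 0.237% with Dox.

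The imprinted Dlk1-Dio3 region of chromosome 12 gave the most rises. It encodes one of the largest groups of mouse miRNAs, expressed from the maternal chromosome. Of 99 members tested, 18 rose (against 5.48% of all miRNAs) and 0 fell, with a median of 0.68 beside 0.17 for all. In all, 61 of the 84 members with a mean of at least 10 RPM were higher in both treatments. The count of rises was 14 by median of ratios and 5, with 1 fall, when scaled outside the miR-290 cluster, and the median was 0.56 and 0.33. The region's share of reads went from 13.4% to 22.1% without Dox and from 12.1% to 21.2% with Dox.

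miR-411-5p (chr12:109710190-109710210, + strand) had the smallest adjusted p of all. It stood at 1438 RPM at day 2 and 5291 at day 4 without Dox, and at 1846 and 6935 with Dox. Both day 4 values exceeded all earlier ones, of which the highest was 3430 at day 0 with Dox. The fold was 3.68 (95% interval 3.36 to 4.04) without Dox and 3.76 (3.49 to 4.05) with Dox, and the log2 change was 1.89 (SE 0.27, adjusted p = 2.73e-09). It is the one named call that remained without the day 2 library lacking Dox. Its neighbour miR-379-5p (chr12:109709065-109709085), the first miRNA of the miR-379/miR-410 cluster, went from 11326 to 26837 RPM and from 11246 to 28559 (log2 change 1.29, SE 0.24, adjusted p = 5.76e-06). The 2 sequences differ at 7 of 21 positions, the first being G2A in the seed, counted from the 5′ end with miR-379-5p first.

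Other abundant members had smaller changes. miR-381-3p went from 17164 to 29750 RPM and from 18971 to 34043, and miR-300-3p from 16568 to 29817 and from 15566 to 27820, with log2 changes of 0.82 and 0.84. miR-127-3p, encoded antisense to the retrotransposon-derived gene Rtl1, went from 16113 to 24776 and from 13451 to 25054 (log2 change 0.76, SE 0.24, adjusted p = 0.0202). These 3 rose by 1.54- to 1.86-fold, and their 2 treatments lay close together. None of the 3 passed when scaled outside the miR-290 cluster, and miR-127-3p did not pass by median of ratios either. miR-382-3p, from an exon of the noncoding RNA gene Mirg, went from 351 to 988 RPM and from 372 to 942. miR-329-3p went from 249 to 734 and from 289 to 683, and miR-495-3p from 107 to 251 and from 85 to 242. All 3 were at least 2-fold higher in both treatments.

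Outside that region, miR-181a-5p ranked first among the rises with a mean of at least 100 RPM. It stood at 17 RPM at day 2 and 157 at day 4 without Dox, and at 19 and 209 with Dox, while the day 0 and day 1 libraries held 7 to 14. The fold was 9.24 (95% interval 4.31 to 24.6) on 7 and 57 reads without Dox, and 11.0 (5.54 to 24.5) on 9 and 113 reads with Dox (log2 change 3.26, SE 0.63, adjusted p = 1.26e-05). miR-181a is known from lymphocytes and from muscle and neural differentiation.

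Its relatives with the same seed fell. miR-181d-5p, from an intron of Nanos3 on chromosome 8, went from 1931 to 1004 RPM and from 2208 to 700 (log2 change -1.30, SE 0.27, adjusted p = 8.48e-05). miR-181c-5p went from 358 to 174 and from 508 to 205 (log2 change -1.17, SE 0.32, adjusted p = 0.00595), and miR-181b-5p from 1689 to 905 and from 1908 to 645 (log2 change -1.23, SE 0.27, adjusted p = 0.000276). All 3 had been higher still at day 0, where miR-181d-5p stood at 5575 and 3684 RPM. miR-181b-5p and miR-181d-5p differ by C12U alone over 23 positions, so their reads may not be separable. miR-181a-5p differs from miR-181d-5p at 4 positions, outside the seed.

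miR-148a-3p (chr6:51269829-51269850, - strand) and miR-152-3p (chr11:96850439-96850459, + strand, in an intron of Copz2) rose and share the seed CAGUGCA. Both are known to act on the DNA methyltransferase gene Dnmt1. miR-148a-3p went from 9136 to 21979 RPM without Dox and from 12766 to 31766 with Dox, 2.41-fold (95% interval 2.31 to 2.50) and 2.49-fold (2.42 to 2.56), with a log2 change of 1.29 (SE 0.24, adjusted p = 5.76e-06). miR-152-3p went from 282 to 1247 and from 389 to 949, 4.42-fold (3.60 to 5.45) and 2.44-fold (2.06 to 2.90). The third member, miR-148b-3p, which differs from miR-148a-3p by C9U and U10C, went from 2806 to 3501 RPM without Dox and from 3395 to 2813 with Dox. It did not pass the test (log2 change 0.02, adjusted p = 1). The seed as a whole went from 12224 to 26727 and from 16550 to 35528 RPM, 2.19-fold and 2.15-fold.

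miR-21a-5p, from an exon of Vmp1 on chromosome 11, is abundant in fibroblasts and in many differentiated cells. It went from 19709 to 36898 RPM without Dox and from 27007 to 53151 with Dox (log2 change 0.94, SE 0.23, adjusted p = 0.000941). Scaled outside the miR-290 cluster its log2 change was 0.60 and did not pass. The list of feeder fibroblast miRNAs, which holds miR-21a-5p and miR-152-3p, went from 3.45% to 5.70% and from 4.29% to 7.07% of reads, mostly through miR-21a-5p. Of its 27 members tested, 3 rose and 1 fell, with a median of 0.11 that turns to -0.02 by median of ratios and -0.24 outside the miR-290 cluster. miR-199a-3p, a defining fibroblast miRNA, went from 154 to 223 RPM and from 149 to 196 and did not pass (adjusted p = 0.515). The part of fibroblasts in these rises was not tested.

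The miR-378 group, known from metabolism and muscle, went back up after a low at days 1 and 2. miR-378c stood at 10134 and 8981 RPM at day 0, at 4856 and 6494 at day 2 and at 13763 and 14113 at day 4, without and with Dox (log2 change 1.31 from day 2, SE 0.25, adjusted p = 8.34e-06). miR-378d went from 1272 to 4265 and from 1816 to 4940 RPM between days 2 and 4, also after more at day 0, and differs from miR-378c by A6C in the seed and by C21G. miR-378a-3p and miR-378b also passed, named after their values were seen, with log2 changes of 1.29 and 1.14. The sources used here do not say how reads that match several of these miRNAs were assigned, so the 4 rises may not be independent.

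Further rises came from smaller miRNAs. miR-92b-3p, a relative of miR-92a-3p, went from 114 to 447 RPM without Dox and from 49 to 120 with Dox (log2 change 1.62, SE 0.40, adjusted p = 0.00143). miR-340-5p went from 107 to 326 and from 113 to 246 (log2 change 1.36, SE 0.44, adjusted p = 0.0281). miR-34c-5p, of the p53-regulated miR-34 family, went from 541 to 2196 and from 640 to 1240 (log2 change 1.49, SE 0.31, adjusted p = 6.16e-05). In that family 2 of 7 tested members rose and 0 fell, the other being miR-34b-3p on 1 to 23 reads, named after its values were seen, but miR-34a-5p went from 1542 to 1095 and from 1389 to 1046 RPM without passing. miR-125a-5p, a homologue of the developmental timing miRNA lin-4, went from 458 to 985 and from 340 to 985 RPM (log2 change 1.32, SE 0.31, adjusted p = 0.000824). Of 8 members of the miR-99/miR-100 and miR-125 list, 3 rose and 0 fell, the other 2 being miR-99a-5p and miR-100-5p, also named after their values were seen, at 12 and 15 RPM at day 2 and 63 to 109 at day 4. The values of the 2 lay close together, at 63 and 63 RPM and at 109 and 105 RPM at day 4, and their reads may not be separable.

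**Figure D3:**
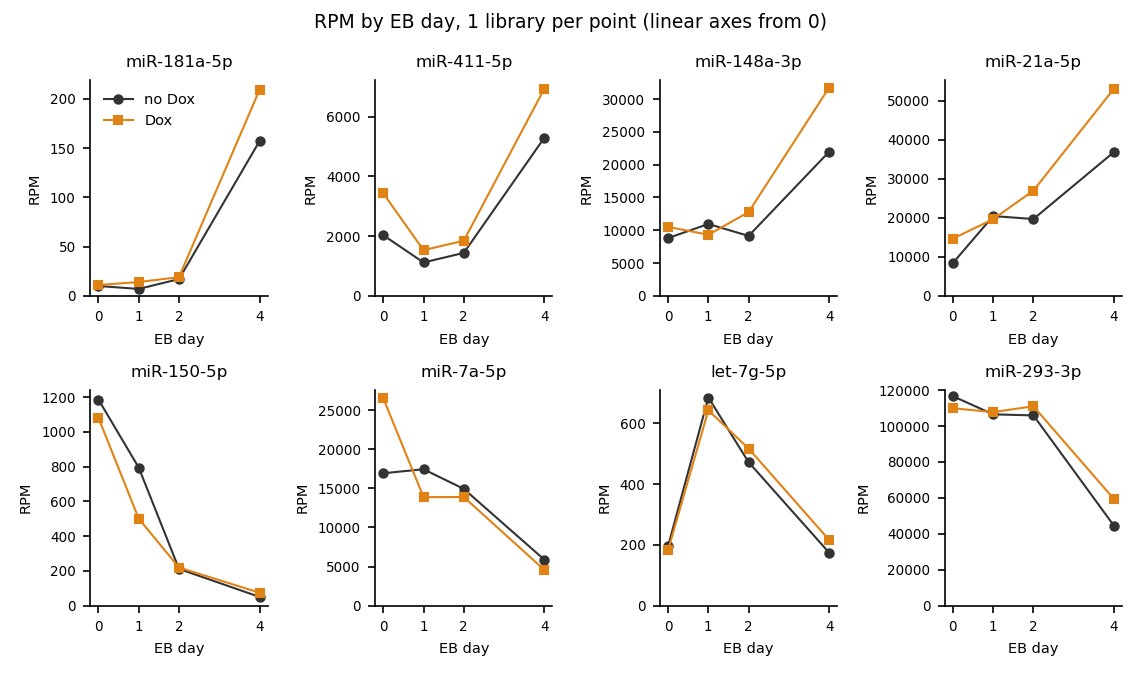
RPM of 8 named miRNAs (y axes linear from 0, each with its own range) at EB days 0, 1, 2 and 4, with circles for no Dox, squares for Dox and 1 library per point. miR-181a-5p, miR-411-5p, miR-148a-3p and miR-21a-5p are highest at day 4 in both treatments, while miR-150-5p, miR-7a-5p and miR-293-3p are lowest there and let-7g-5p returns to about its day 0 level.

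Outside the miR-290 cluster, the most abundant fall was miR-7a-5p, known from endocrine cells and neurons. It went from 14934 to 5876 RPM without Dox and from 13892 to 4566 with Dox, 2.54-fold (95% interval 2.42 to 2.67) and 3.04-fold (2.90 to 3.19) lower, with a log2 change of -1.48 (SE 0.24, adjusted p = 2.24e-07). At days 0 and 1 it had stood at 13882 to 26526 RPM. miR-7b-5p, which differs by A10U over 23 positions, followed it closely with 14222, 5636, 13066 and 4321 RPM in the same order. Their reads may be the same reads, and the 2 are counted as separate calls.

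miR-150-5p is best known from lymphocytes. It went from 211 to 50 RPM without Dox and from 219 to 74 with Dox (log2 change -1.80, SE 0.35, adjusted p = 1.48e-05). Its decline had begun earlier, from 1185 and 1080 RPM at day 0 and 794 and 500 at day 1. miR-429-3p, of the epithelial miR-200 family, went from 2197 to 1043 and from 1634 to 624 RPM (log2 change -1.23, SE 0.29, adjusted p = 0.000824), after a rise from 461 and 391 at day 0. It was the only 1 of 9 members of that family called, and the family's median of 0.21 turned to -0.13 when scaled outside the miR-290 cluster. miR-6539 went from 451 to 199 and from 417 to 131 RPM. miR-93-5p, of the cell cycle-linked miR-17 family clusters, went from 7620 to 5344 and from 6519 to 3392 (log2 change -0.73, adjusted p = 0.0438).

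The let-7 family is held down by LIN28 in pluripotent cells and becomes abundant in differentiated ones. Of 17 members tested, 4 fell (against 3.81% of all miRNAs) and 0 rose (against 5.48%), with a median of -0.52 beside 0.17 for all. let-7g-5p, from an intron of Wdr82 on chromosome 9, went from 472 to 174 RPM without Dox and from 517 to 216 with Dox (log2 change -1.34, SE 0.35, adjusted p = 0.0025). let-7a-5p went from 1338 to 808 and from 1198 to 584, and let-7b-5p and let-7c-5p fell too, with log2 changes of -0.88, -0.91 and -0.96. The calls of let-7a-5p and let-7b-5p were each kept under 7 of 18 alternatives. That of let-7c-5p was kept under 10 and that of let-7g-5p under 15. The family as a whole had stood at 1900 and 1971 RPM at day 0, was at 4493 and 4374 at day 2, and was at 2739 and 2160 at day 4. let-7a-5p and let-7c-5p differ by A19G alone, so their falls may not be separate.

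The germ layer lists are described next, and their counts stand beside 5.48% higher, 3.81% lower and a median of 0.17 for all miRNAs tested. In the mesoderm and muscle list 2 of 14 tested members rose and 1 fell, with a median of 0.67. The 2 that rose were the muscle miRNAs. miR-133a-3p went from 24 to 91 RPM without Dox and from 0 to 31 with Dox (log2 change 3.44, SE 1.05, adjusted p = 0.0182). miR-1a-3p went from 5 to 39 and from 0 to 22 (log2 change 3.63, SE 1.19, adjusted p = 0.0314). These values rest on 10, 33, 0 and 17 reads for miR-133a-3p and on 2, 14, 0 and 12 for miR-1a-3p, in the order just given. The call of miR-133a-3p was kept under 11 of 18 alternatives and that of miR-1a-3p under 7. The day 2 library with Dox allows up to 6.38 RPM for each at 0 reads. The heart and slow muscle miRNA miR-499-5p went from 19 to 30 and from 30 to 107 RPM and did not pass (adjusted p = 0.19).

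The smooth muscle miRNA miR-145a-5p fell, from 145 to 17 RPM without Dox and from 138 to 28 with Dox (log2 change -2.64, SE 0.47, adjusted p = 3.38e-06). That is 8.53-fold (95% interval 3.79 to 24.8) and 4.93-fold (2.81 to 9.42) lower. miR-143-3p, from the same cluster, went from 2410 to 1004 and from 1929 to 1816 RPM without passing (log2 change -0.67, adjusted p = 0.101).

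In the blood and endothelium list 3 of 17 tested members rose and 1, miR-150-5p, fell, with a median of 0.16 that turned to -0.03 when scaled outside the miR-290 cluster. miR-218-5p, known from vessels and motor neurons, went from 17 to 88 RPM without Dox and from 17 to 54 with Dox (log2 change 1.96, SE 0.68, adjusted p = 0.0438). The erythroid miRNA miR-486b-5p went from 2 to 19 and from 9 to 31 (adjusted p = 0.0314), and miR-486a-5p is its near copy. The call of miR-218-5p was kept under 3 of 18 alternatives and that of miR-486b-5p under 8. miR-126a-3p, the endothelial miRNA, stood at 1139 and 1040 RPM without Dox and at 919 and 1565 with Dox, in opposite directions (adjusted p = 0.577). No rise in this list was called when scaled outside the miR-290 cluster.

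In the neural list 0 of 30 tested members rose and 4 fell, with a median of -0.04. Besides the miR-7 pair these were miR-124-3p, the most abundant neuronal miRNA of adult brain, and miR-128-1-5p. miR-124-3p went from 85 to 52 RPM without Dox and from 74 to 20 with Dox (log2 change -1.27, SE 0.45, adjusted p = 0.0486), and miR-128-1-5p from 36 to 0 and from 23 to 11. Without Dox the counting interval of the miR-124-3p ratio, 0.333 to 1.10, includes 1. The 5p arm of the same hairpin, at a mean of 26.25 RPM, was higher at day 4 in both treatments and did not pass (log2 change 0.97). The call of miR-124-3p was kept under 4 of 18 alternatives, and was lost with both other pseudocounts, without a filter, with limma-voom and without any 1 of 7 libraries. That of miR-128-1-5p was kept under 10 of the 18, over which its log2 change ran from -5.18 to -1.03. miR-9-5p, a miRNA of neural progenitors, stood at 7304 and 7302 RPM without Dox and at 4835 and 5211 with Dox, close to level in both treatments (log2 change 0.05, SE 0.26). miR-184-3p, among the most abundant miRNAs of the libraries, went from 62431 to 67642 and from 45057 to 61695 and did not pass (adjusted p = 0.446).

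In the endoderm list 0 of 7 tested members passed, with a median of 0.61. The intestinal and hepatic miR-192-5p went from 176 to 334 RPM without Dox and from 406 to 462 with Dox (adjusted p = 0.315). The pancreatic islet miRNA miR-375-3p went from 26 to 61 and from 15 to 33 (adjusted p = 0.309), and miR-194-5p from 78 to 88 and from 166 to 122. A change of 2-fold may be missed in this design. In simulated libraries the test called 16% of 200 miRNAs changed 2-fold and 88% of 200 changed 4-fold. That simulation assumed a dispersion of 0.05 and no treatment effect. It is a rough guide to these libraries, in which some changes under 2-fold did pass.

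**Figure D4:**
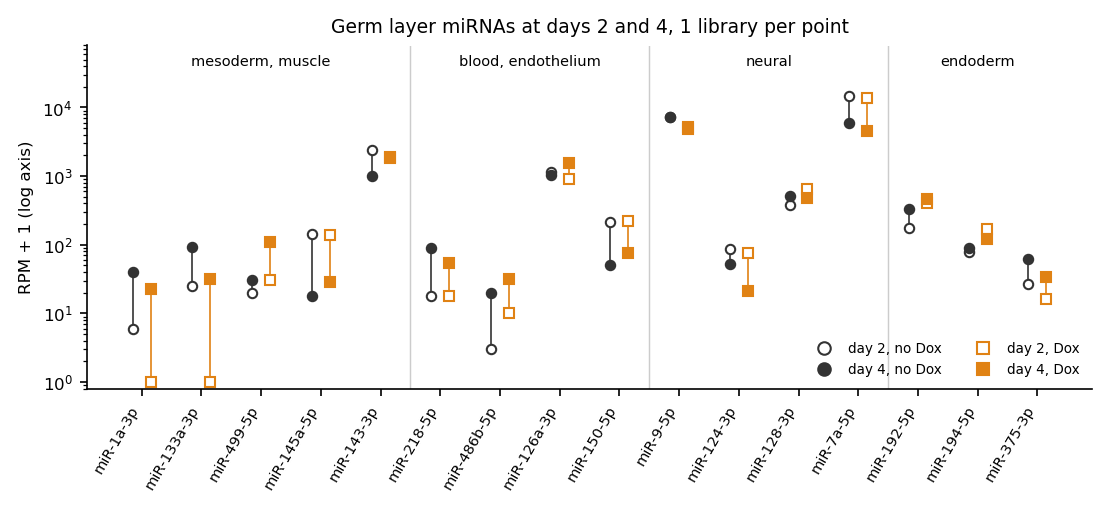
RPM + 1 on a log axis for 16 germ layer miRNAs, with open symbols for day 2, filled symbols for day 4, circles for no Dox, squares for Dox and 1 library per symbol, so that a symbol at 1 stands for 0 RPM. miR-1a-3p, miR-133a-3p, miR-218-5p and miR-486b-5p are higher at day 4 in both treatments, and miR-145a-5p, miR-150-5p, miR-124-3p and miR-7a-5p are lower in both.

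The other lists had calls as follows, beside 3.81% lower and 5.48% higher over all miRNAs tested. The miR-17 family clusters had 3 of 28 members lower, miR-93-5p, miR-93-3p and miR-19b-1-5p, and 0 higher, with a median of -0.24, and their most abundant member, miR-92a-3p, measured 20160 and 25204 RPM without Dox and 15398 and 17654 with Dox. The Sfmbt2 miRNAs, a large group expressed from an intron of Sfmbt2 on chromosome 2, had 2 of 75 lower and 0 higher, with a median of 0.33. The 2 were miR-669a-5p and miR-669p-5p, which had equal values in every library and may be the same reads. The miR-130/miR-301 family had 1 of 8 lower, miR-130a-3p, from 1447 to 968 and from 1655 to 776 RPM, and a median of 0.16 that turned to -0.19 outside the miR-290 cluster. The miR-322/miR-503/miR-542 cluster had 1 of 12 higher, miR-322-5p, and a median of -0.11. Of these calls, miR-93-3p, miR-19b-1-5p, the miR-669 pair and miR-322-5p were named after their values were seen. No member passed in the miR-183 cluster (6 tested, median -0.83), the Hox cluster miRNAs (8, -0.20), the miR-15/16 family (11, -0.44), the miR-23/27/24 clusters (11, -0.29), the miR-30 family (11, 0.10) or the Microprocessor-independent miRNAs (19, 0.36). The miR-30 median turned to -0.02 by median of ratios and -0.24 outside the miR-290 cluster. In the miR-183 cluster the abundant miR-182-5p, miR-183-5p and miR-96-5p did not share a direction, and miR-182-5p went from 30437 to 31199 and from 33522 to 42215 RPM.

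**Figure D5:**
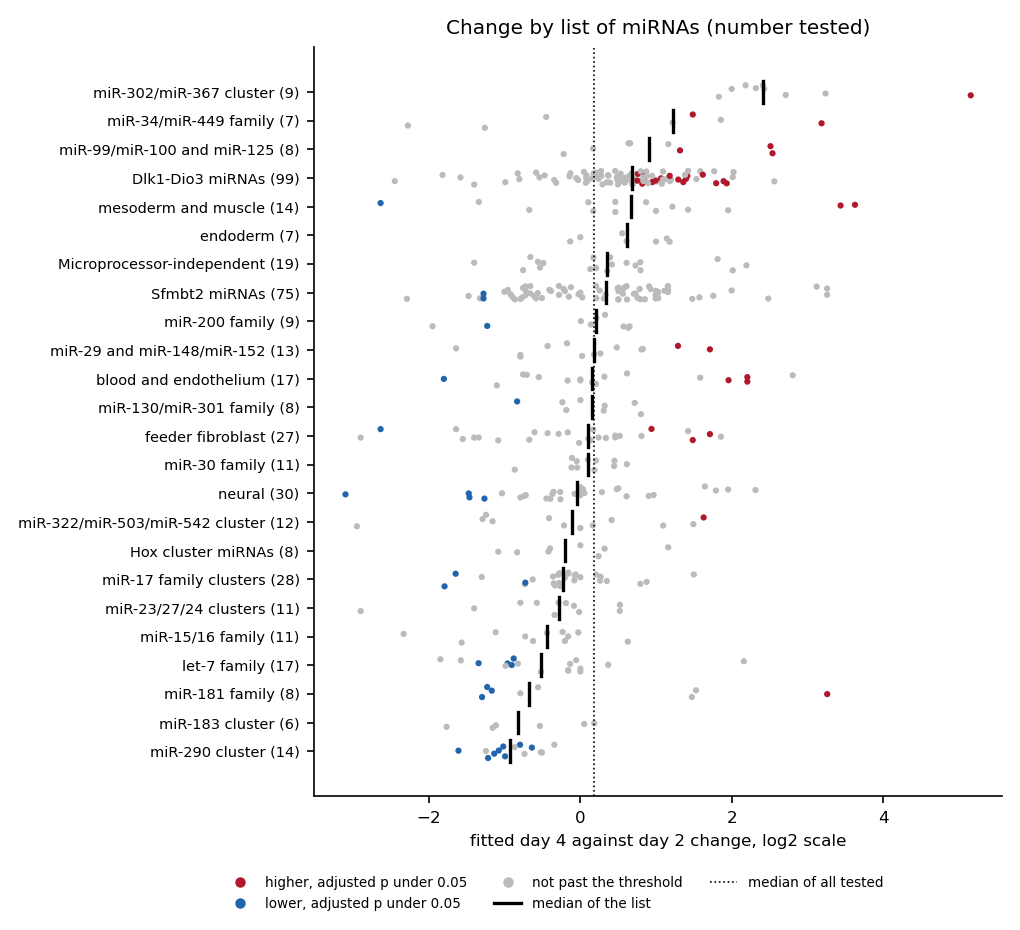
Fitted log2 change from day 2 to day 4 (x axis) of every tested member of 24 lists (rows, with the number tested), where red and blue points passed the limma test and gray points did not, the black bar is the median of the list and the dotted line is the median of all 839 miRNAs at 0.17. The miR-302/miR-367 list lies farthest right at 2.41 and the miR-290 list farthest left at -0.93, and 6 of the medians (miR-200, miR-29 with miR-148/miR-152, blood and endothelium, miR-130/miR-301, and the feeder and miR-30 lists) change sign with the scaling.

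Both arms of a hairpin come from 1 precursor, so they give a reading of a change that does not use the same mature molecule. Of 154 hairpins with both arms at a mean of at least 10 RPM, 53 had both arms moving 1 way in both treatments (34.4%), and 22 had arms moving in opposite ways (14.3%). Some related hairpins have an arm with equal values, such as the 3p arms of miR-199a and miR-199b or of miR-466b and miR-466c. The 154 are therefore not all separate readings. Among the 34 hairpins with an arm that passed, 23 had both arms moving the same way and 4 had them moving in opposite ways. An arm that passed had already moved 1 way in both treatments, so these counts cannot be compared with the shares of the 154. The 4 were miR-124 and miR-130a, whose 3p arms fell and 5p arms rose, and miR-532 and miR-669a, named after their values were seen. Both arms passed for 6 hairpins, among them miR-293 and miR-294 on the falling side and miR-329, miR-370 and miR-434 on the rising side, named after their values were seen. The sixth, miR-93, fell on both arms. For miR-152 the arms parted with Dox only, as the 3p arm rose in both treatments. The 5p arm went from 24 to 63 RPM without Dox and from 13 to 2 with Dox. These are low values, since 1 read was worth 1.85 RPM in the day 4 library with Dox.

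Whether the change from day 2 to day 4 differed with Dox was tested in a model with treatment by day terms, which has 1 residual degree of freedom. With limma 0 of 839 miRNAs passed (0%), although 110 had an unadjusted p under 0.05. The limma-voom method, run on whole reads, called 9. Of those 9, 4 were miR-302 members, with smaller rises with Dox. The difference in log2 change, with Dox minus without Dox, was -3.98 for miR-302a-5p (limma adjusted p = 0.251), -3.27 for miR-302b-3p (0.225), -3.08 for miR-302a-3p (0.384) and -2.94 for miR-302d-3p (0.225). miR-302a-5p went from 187 to 4019 RPM without Dox and from 130 to 177 with Dox, and miR-302a-3p from 429 to 4444 and from 253 to 310. With Dox the counting intervals of both include a ratio of 1 (0.981 to 1.92 and 0.964 to 1.56).

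The remaining named differences went in opposite directions. miR-210-3p, the main miRNA of the hypoxia response, went from 332 to 988 RPM without Dox, 2.98-fold (95% interval 2.44 to 3.64), and from 136 to 65 with Dox, 2.09-fold lower (1.37 to 3.28). miR-10a-5p, encoded in the HoxB cluster, went from 389 to 201 without Dox, 1.94-fold lower (1.46 to 2.58), and from 255 to 689 with Dox, 2.70-fold (2.19 to 3.34). The difference was -2.62 for miR-210-3p (SE 1.66, limma adjusted p = 0.636) and 2.38 for miR-10a-5p (SE 0.07, limma adjusted p = 0.225). These 2 SEs come from a model whose 1 residual degree of freedom lies in days 0 and 1. They do not measure how precise either difference is, and with limma-voom the SEs were 0.73 and 0.66. Both miRNAs were among the 9 of limma-voom, and each has 1 library per condition behind it.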

How the data were processed

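Small RNA libraries were prepared with an NEBNext kit from TRIzol-isolated total RNA, per the labels' protocols. The authors deposited 1 table of scores, whole numbers with nearly the same sum in every library, read as RPM; 1 row that names no miRNA and holds no values was left out. Bowtie and mm10 are named in the submitters' processing notes, without version or role; the counting rule and the handling of reads with several matches were not given in the sources used here. For each library a read total was sought at which every value is a whole number of reads within 0.5 RPM; 1 total was found per library in the range searched (8 of 8 simulated libraries returned exactly).

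Samples were grouped by their labels. miRNAs with at least 1 RPM in at least 2 libraries (839) were tested with limma 3.58.1 (R 4.3.3) on log2(value + 1), with trend and robust options, for day 4 minus day 2 with day and treatment terms over 8 libraries (3 residual degrees of freedom), and adjusted by Benjamini-Hochberg at 0.05. Fold changes on this scale understate changes of low miRNAs. The prior degrees of freedom were infinite for 800 miRNAs, so their spread was taken from the trend over miRNAs and SEs may be too small. In simulated libraries with an assumed dispersion of 0.05, false calls were 0 with nothing changed, 0 with 2-fold and 4 with 4-fold changes.

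The miRNAs named were the 12 largest rises and falls past the threshold by the smaller of the 2 treatments' ratios (mean of at least 100 RPM), the 4 most abundant of each, the 6 that differed most between treatments, members of at least 10 RPM of the 4 germ layer lists and the 3 most abundant of each other list. The comparison and the 24 lists were chosen with earlier results of these data known. Alternatives changed the scaling, pseudocount, filter, test, model and libraries. Hairpin loci came from RefSeq and GENCODE M21 on GRCm38.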

Additional observations from a re-analysis of the deposited data

Results flagged for a closer look

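Among the 510 miRNAs whose mean reached 10 RPM, 25 moved in opposite directions in the 2 treatments from day 2 to day 4, each with a counting interval on its own side of no change. Of these, 9 are miRNAs named by the rule and are given here. None of the 9 differences passed the limma test of the difference, and each condition has 1 library. The differences, with Dox minus without Dox on the log2 scale, were -2.62 for miR-210-3p and 2.38 for miR-10a-5p, whose values are given above. miR-542-3p had a difference of -1.93, from 501 to 734 RPM without Dox and from 342 to 131 with Dox. The difference was -0.86 for miR-128-3p, from 380 to 513 and from 649 to 482 RPM. It was -0.81 for miR-25-3p, from 9307 to 11830 and from 13051 to 9434 RPM. It was -0.59 for miR-148b-3p, -0.51 for miR-200a-3p, 0.55 for miR-16-5p and 0.38 for miR-30d-5p. miR-200a-3p went from 3383 to 4050 and from 3129 to 2638 RPM, miR-16-5p from 2536 to 2058 and from 2257 to 2679, and miR-30d-5p from 7283 to 6839 and from 7123 to 8710.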

How the results depend on the processing

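The count of 78 miRNAs past the threshold was 80 and 88 under the 2 other scalings, 72 and 94 with pseudocounts of 0.5 and 5, 67 without a filter, 89 with a mean of at least 10 RPM and 85 with limma-voom. It was 25 without the robust option, 42 without the treatment term and 0 with only days 2 and 4. Leaving out 1 library gave 1 to 122, the lowest without day 2 lacking Dox and the highest without day 4 with Dox, where the lone sample is assumed to vary like the others. Of 47 named miRNAs past the threshold none reversed, and 20 remained past it without the robust option, 29 without the treatment term, 7 without day 2 with Dox and 1 without day 2 lacking Dox. Of 77 named miRNAs not past the threshold, 34 changed sign under at least 1 alternative. The count of 70 miRNAs changed at least 2-fold in both treatments was 127 without a filter, 35 with a mean of at least 50 RPM, 142 at 1.5-fold and 9 at 4-fold. The difference between treatments had 0 calls except in limma-voom, with 9. No paired analysis was possible because each condition has 1 library and the labels carry no replicate numbers; treatment was a term of the model instead. At 362483 to 541342 reads, values near 5.54 to 8.28 RPM rest on 3 reads.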
